A study of Mus musculus with 3 samples.

Results

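The ZBTB family comprises transcription factors that join an N-terminal BTB domain to C-terminal zinc fingers. Its members were taken as the genes whose only platform symbol is Zbtb followed by a number and at most a letter, which gave 40 of the 19938 genes named on the array, read by 43 probe sets. Their transcripts were described in thymocytes (T cells still maturing in the thymus) from 3 wild-type mice of a mixed FVB and C57BL6 background, numbered 92, 103 and 106. These mice are the normal group of a study of tPTEN-/- lymphomas, whose tumours were not analysed here, so the design gives 1 group and no comparison between genotypes. Total RNA (0.3 µg a sample) was hybridised to Affymetrix MoGene 1.0 ST arrays, which read each gene with a set of short probes and report a level on the log2 scale. The labels list a RIN of 3, a low RNA integrity, for all samples and carry a T cell lymphoma entry under disease state although titles and genotype read wild type. Age is not among the labels.

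In a ZBTB protein the BTB domain binds another BTB protein and recruits corepressors such as NCOR and BCOR or the ubiquitin ligase scaffold CUL3, while the zinc fingers select the DNA site. In the mouse thymus, ThPOK (Zbtb7b) directs thymocytes selected on MHC class II to the CD4 lineage and restrains the CD8 programme of Runx3. PLZF (Zbtb16) sets the innate-like programme of natural killer T cells, ZBTB1 is required for lymphoid development, and MIZ-1 (Zbtb17) pairs with MYC and is needed by early T cell progenitors that depend on interleukin 7.

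Promoters are shown for the lineage factors with a window, for the neighbours Zbtb1 and Zbtb25, for the neighbours Zbtb8a and Zbtb8b, and for Zbtb32. They were picked by hand because they differ in CpG content, so that difference among them is no result. The choice of family members did not use CpG content. RefSeq windows of the 250 bases before each start (build GRCm38.p6) were found for 35 members, 48 windows in all, since 8 members had several. No window was used for Zbtb7c, Zbtb10, Zbtb16, Zbtb40 and Zbtb48. Capitals mark every match, on either strand, to the GC box GGGCGG, the CCAAT box CCAAT, the TATA box TATAAA, the E box CACGTG, the ETS motif CCGGAAG, the NRF1 motif GCATGCG and the Kaiso motif TCTCGCG.
Zbtb7b, upstream start, chr3:89393379-89393628, minus strand: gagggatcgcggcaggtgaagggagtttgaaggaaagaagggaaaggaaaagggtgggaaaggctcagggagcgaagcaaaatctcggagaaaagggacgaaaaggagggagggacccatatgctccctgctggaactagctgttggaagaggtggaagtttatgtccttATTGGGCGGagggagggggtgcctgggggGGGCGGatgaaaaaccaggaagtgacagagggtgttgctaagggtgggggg
Zbtb7b, downstream start, chr3:89387672-89387921, minus strand: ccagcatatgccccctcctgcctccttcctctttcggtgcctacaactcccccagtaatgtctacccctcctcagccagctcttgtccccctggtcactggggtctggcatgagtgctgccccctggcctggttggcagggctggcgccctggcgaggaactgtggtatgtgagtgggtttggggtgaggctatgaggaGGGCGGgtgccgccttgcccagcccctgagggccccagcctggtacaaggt
Zbtb32, chr7:30598910-30599159, minus strand: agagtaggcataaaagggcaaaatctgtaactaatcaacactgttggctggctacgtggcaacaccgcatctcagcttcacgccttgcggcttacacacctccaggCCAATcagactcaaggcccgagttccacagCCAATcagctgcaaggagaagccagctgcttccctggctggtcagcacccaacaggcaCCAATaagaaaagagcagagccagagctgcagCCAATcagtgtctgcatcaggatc
Zbtb17, chr4:141444423-141444672, plus strand: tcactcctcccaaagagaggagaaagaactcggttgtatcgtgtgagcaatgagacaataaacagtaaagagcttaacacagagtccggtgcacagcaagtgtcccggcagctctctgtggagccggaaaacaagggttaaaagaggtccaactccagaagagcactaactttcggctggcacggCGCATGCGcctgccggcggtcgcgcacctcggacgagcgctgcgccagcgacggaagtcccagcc
Zbtb1, chr12:76370270-76370519, plus strand: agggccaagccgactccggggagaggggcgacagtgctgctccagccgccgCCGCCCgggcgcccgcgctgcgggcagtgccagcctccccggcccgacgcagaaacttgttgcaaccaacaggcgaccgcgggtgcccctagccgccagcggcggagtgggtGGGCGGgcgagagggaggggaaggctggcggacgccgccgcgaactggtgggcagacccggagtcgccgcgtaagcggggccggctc
Zbtb25, chr12:76369561-76369810, minus strand: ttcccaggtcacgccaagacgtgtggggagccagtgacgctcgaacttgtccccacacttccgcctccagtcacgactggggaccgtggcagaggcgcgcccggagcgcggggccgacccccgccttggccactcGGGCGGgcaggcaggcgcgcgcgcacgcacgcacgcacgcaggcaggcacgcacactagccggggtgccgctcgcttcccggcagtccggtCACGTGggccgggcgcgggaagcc
Zbtb8a, chr4:129378029-129378278, minus strand: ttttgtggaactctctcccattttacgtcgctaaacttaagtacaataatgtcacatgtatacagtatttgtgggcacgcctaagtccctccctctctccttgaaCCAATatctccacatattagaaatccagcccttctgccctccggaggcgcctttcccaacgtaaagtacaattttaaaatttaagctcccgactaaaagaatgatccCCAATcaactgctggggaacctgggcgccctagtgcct
Zbtb8b, chr4:129440819-129441068, minus strand: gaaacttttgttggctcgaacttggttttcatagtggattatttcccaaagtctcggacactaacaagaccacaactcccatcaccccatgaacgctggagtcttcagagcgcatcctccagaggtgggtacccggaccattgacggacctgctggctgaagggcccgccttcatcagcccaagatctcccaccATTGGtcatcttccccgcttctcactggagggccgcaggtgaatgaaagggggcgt

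The Zbtb7b windows held 7 CpG dinucleotides at the upstream start and 5 at the downstream one, and the Zbtb32 window shown held 5. The Zbtb1 window held 33, the one shown for Zbtb25 34 and the one shown for Zbtb17 19; Zbtb17, Zbtb25 and Zbtb32 each have another start, whose window is not printed. In the upstream Zbtb7b window a CCAAT box on the opposite strand overlaps a GC box, and the capitals in Zbtb17 are 2 overlapping NRF1 matches, 1 on each strand. That Zbtb32 window carried 4 CCAAT boxes, a number reached by 276 of 32851 windows of all genes (0.84%). It was reached by 3 of the 48 ZBTB windows, this one included, so it is not particular to Zbtb32. The array reads 1 probe set for Zbtb7b, so its levels do not tell the starts apart.

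**Figure D1:**
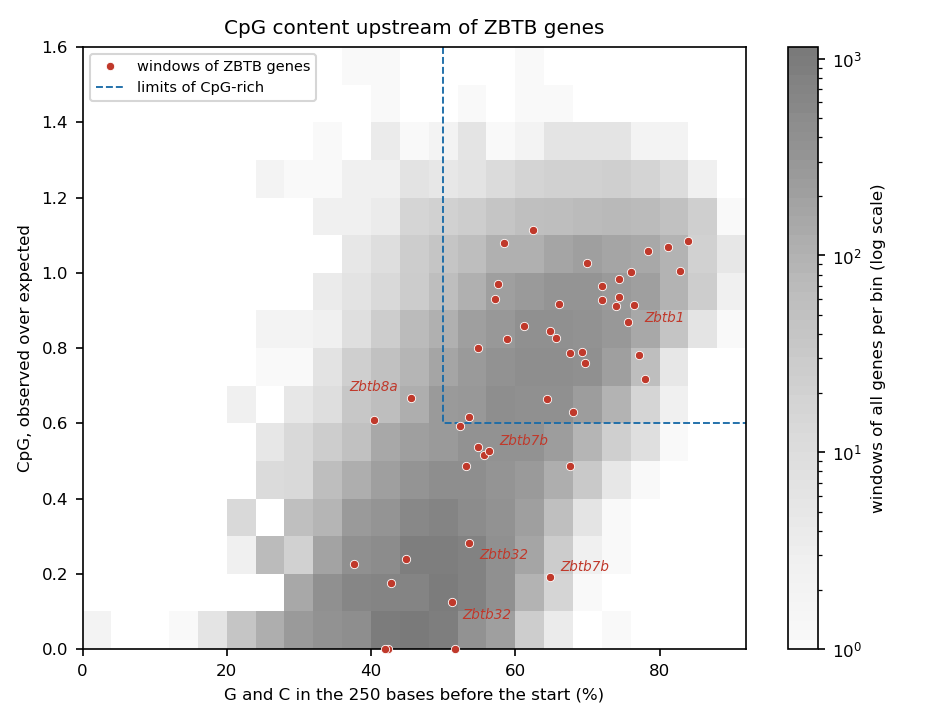
Each red point is the window of 250 bases before a start of a ZBTB gene, by its share of G and C (x axis, %) and its CpG count over that expected from its bases (y axis); grey squares count the windows of all genes (log colour scale) and dashed lines bound the CpG-rich windows. Most ZBTB windows lie in the CpG-rich corner, while those of Zbtb7b and Zbtb32 lie below it.

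Of the ZBTB windows, 31 of 48 (64.6%) were CpG-rich, defined as at least 50% G and C with CpG at 0.6 or more of the expected number, against 31.0% of all windows. The median share of G and C was 64.6% in ZBTB windows and 52.4% in all windows. By gene, 26 of the 35 members with a window (74.3%) had a CpG-rich one, against 7556 of 15614 named genes (48.4%). The 9 without one were Zbtb3, Zbtb4, Zbtb5, Zbtb7b, Zbtb8a, Zbtb8b, Zbtb20, Zbtb32 and Zbtb46. The GC box was present in 60.4% of ZBTB windows (32.7% of all), the CCAAT box in 29.2% (33.8%), the TATA box in 10.4% (12.4%), the E box in 10.4% (6.02%), the ETS motif in 18.8% (6.91%) and the NRF1 motif in 10.4% (3.02%). Among CpG-rich windows alone the GC box share was 74.2% in ZBTB windows and 71.9% in all, so the difference over all windows was not seen there. The CCAAT box share was then 19.4% (32.9% of all), that of the TATA box 3.23% (3.69%), of the E box 16.1% (9.72%), of the ETS motif 29.0% (15.4%) and of the NRF1 motif 16.1% (6.68%). The Kaiso motif, which carries CpG and is bound by the family's own member Kaiso (Zbtb33), was present in 4 windows (8.33%, against 2.10% of all), in Zbtb34, Zbtb41, Zbtb42 and the start of Zbtb25 that is not printed. Among CpG-rich windows alone the ZBTB share was 12.9% and the share of all 5.96%. Windows of a gene can overlap, and these shares describe letters only. Over all ZBTB windows the NRF1, E box and TATA box shares rest on 5 windows each. Some of these belong to the same gene, Zbtb17, Zbtb25 and Zbtb18 in that order.

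The labelled cell type was checked against its markers. All 13 measured thymocyte markers were above background on every array, with Satb1 at 13.70 ± 0.07, Rag1 at 13.59 ± 0.22 and Cd3g at 13.30 ± 0.04 (SD, n = 3). Of the 13, 10 were highest in mouse 92 and 3 in mouse 103, and none was lowest in mouse 92. They averaged 11.97, 11.84 and 11.82 in mice 92, 103 and 106. Neutrophil and B cell markers were all lowest in mouse 92, as were 4 of 5 erythroid markers. So were 11 of 12 NKT, NK and gamma-delta T cell and 8 of 12 macrophage and dendritic cell markers. Of the thymic epithelial markers 5 of 10 were lowest there, and of the fibroblast and endothelial markers 3 of 10. Over all tested genes 35.1% were lowest in mouse 92, a share that the fibroblast and endothelial count does not exceed. On all arrays 7 of 12 neutrophil, 7 of 11 B cell and 4 of 5 erythroid genes of these lists were above background. So were 9 of 12 macrophage and dendritic cell and 7 of 12 NKT, NK and gamma-delta T cell genes. The thymic epithelial list had 7 of 10 above it and the fibroblast and endothelial list 5 of 10. Background is defined below, and 61.8% of all named genes were above it on all arrays. The neutrophil (58.3%), B cell (63.6%) and NKT, NK and gamma-delta T cell (58.3%) lists were near that share. Neutrophil markers averaged 6.04 in mouse 92, 7.75 in mouse 103 and 7.39 in mouse 106, B cell markers 6.35, 7.41 and 7.16, and erythroid markers 6.59, 7.49 and 7.21 in the same order. Macrophage and dendritic cell markers averaged 6.93, 7.47 and 7.14, those of NKT, NK and gamma-delta T cells 6.60, 7.14 and 6.88, thymic epithelial markers 6.81, 7.00 and 6.83, and fibroblast and endothelial markers 6.56, 6.74 and 6.53. The test of variation described below was passed by 0.225% of all tested genes. Among them were the neutrophil genes S100a8, S100a9, Ngp, Lcn2 and Ltf, the B cell gene Cr2 and the erythroid gene Alas2. Each of these markers was lowest in mouse 92. Their part in the ZBTB values was not tested. Mouse 92 also differed from the other mice in its sex-linked genes, given below, and the part of sex was not tested. With bulk RNA, fewer cells of a type and less RNA per cell cannot be told apart.

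Nearly the whole family read above background. Background was the 95th percentile of 1207 chemosensory receptor genes (trace amine, vomeronasal and olfactory), which thymocytes are not known to use, and lay at 5.91, 6.10 and 6.0 in mice 92, 103 and 106. On all 3 arrays 38 of 40 members (95%) exceeded it, against 61.8% of all named genes. At the 99th percentile (6.68, 7.00 and 6.84) 34 members did, against 46.8% of all named genes. The 1207 receptor genes are among the named genes, and most of them lie under these thresholds by definition. This lowers the shares over all named genes, here and below. The smallest margin over the first threshold was 2 log2 units or more for 25 members, between 1 and 2 for 7 and under 1 for 6. All 26 members with a CpG-rich window passed, beside 84.7% of all named genes with such a window, and 8 of the 9 without one passed, beside 42.2% of all such genes. Probes differ in affinity, so the levels below place a gene against background and do not rank 1 gene over another.

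**Figure D2:**
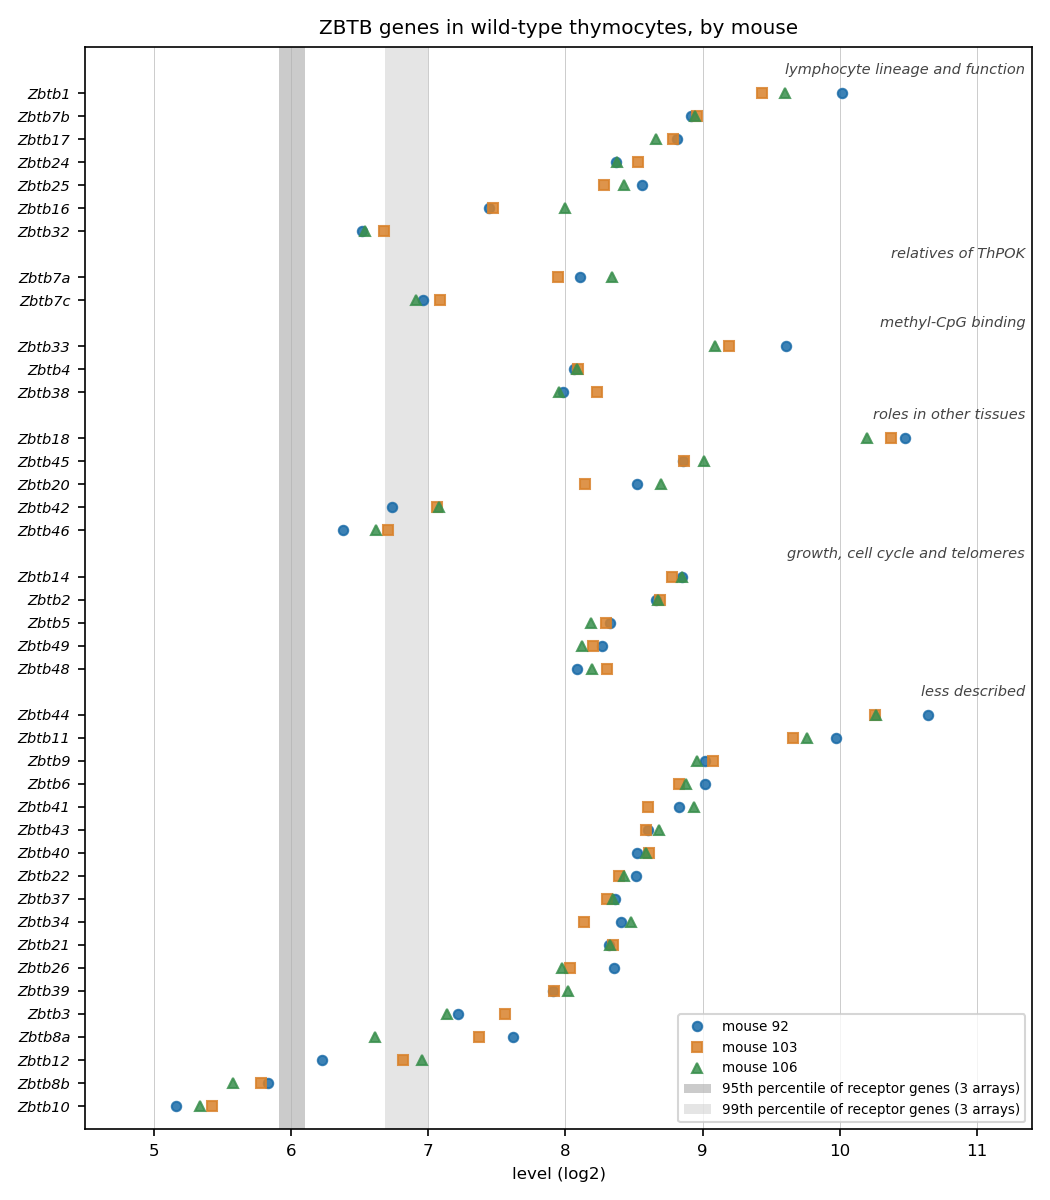
Level of each ZBTB gene (x axis, log2) in mice 92, 103 and 106, grouped by role; grey bands span the 95th and 99th percentiles of receptor genes over the 3 arrays. Only Zbtb8b and Zbtb10 lie left of the darker band, and the points of Zbtb8a and Zbtb12 are the most widely spaced.

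The lineage factors of the thymus all read above background. Zbtb7b had levels of 8.92, 8.96 and 8.94 in mice 92, 103 and 106, a mean of 8.94 ± 0.02 (SD, n = 3), so that the 3 mice lay within 0.04 of each other. Zbtb17 read 8.81, 8.78 and 8.66 (8.75 ± 0.08), with mouse 106 lowest. Zbtb1 read 10.02, 9.43 and 9.60, and mouse 92 was 1.5-fold above mouse 103. Zbtb16 read 7.44, 7.47 and 8.0, so mouse 106 was apart from the other two by at least 0.53. Of the 12 NKT, NK and gamma-delta T cell markers 9 were highest in mouse 103, 2 in mouse 106 and 1 in mouse 92. Nkg7, Ccl5, Gzma, Gzmb, Tbx21, Il2rb and Sox13 were above background on all arrays, and Klrb1c, which encodes the NK1.1 antigen, Ncr1 and Klrk1 on none. Their part in the Zbtb16 level was not tested.

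Other members tied to lymphocytes followed. Zbtb32, a repressor known from activated T cells, had levels of 6.52, 6.68 and 6.54, above the 95th but under the 99th percentile of receptor genes on each array. Zbtb24, whose human counterpart is mutated in a form of ICF immunodeficiency, read 8.37, 8.53 and 8.37. Zbtb25, described in human T cells as a repressor of NFAT targets, read 8.56, 8.28 and 8.43. Zbtb25 and Zbtb1 lie head to head on chromosome 12, with their nearest annotated starts 960 bases apart. Both were highest in mouse 92 and lowest in mouse 103, by 0.28 for Zbtb25 and 0.58 for Zbtb1, and neither spread passed the test described below.

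Zbtb7a (LRF), the closest relative of ThPOK with roles in erythroid and lymphoid cells, read 8.11, 7.95 and 8.34, and Zbtb7c read 6.96, 7.09 and 6.91, under 1 log2 unit above the 95th percentile in 2 mice. Among the members that bind methylated CpG, Zbtb33 (Kaiso) read 9.61, 9.19 and 9.09, highest in mouse 92. Zbtb33 lies on the X chromosome. Xist read 5.30, 11.85 and 11.67 and the Y-linked Eif2s3y 10.42, 3.59 and 3.55 in the same order of mice. Sex therefore moves with every difference between mouse 92 and the other mice, in other members and the marker lists as in Zbtb33. The part of sex was not tested. Zbtb4 was nearly level at 8.06, 8.09 and 8.09, and Zbtb38 read 7.98, 8.23 and 7.96.

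Members best known from other tissues also read above background in this bulk RNA, which does not tell which cells supplied the signal. Zbtb18, a transcriptional repressor required for the development of cortical neurons, had levels of 10.48, 10.37 and 10.19, and both Zbtb20, a repressor in liver that also supports plasma cells, and Zbtb45 (8.86, 8.86 and 9.01) were at least 2 log2 units above the background threshold. Zbtb42, linked to skeletal muscle, read 6.73, 7.07 and 7.08. Zbtb46, a marker of classical dendritic cells, read 6.38, 6.71 and 6.62, between the percentiles in every mouse and lowest in mouse 92. Of the 12 macrophage and dendritic cell markers 8 were also lowest there and 4 in mouse 106, beside 35.1% and 36.6% of all tested genes. Among the dendritic cell genes, Itgax and Xcr1 were lowest in mouse 92 and Flt3 in mouse 106. Each of them was highest in mouse 103, as was Zbtb46, and Xcr1 lay below background on every array. In the whole list 10 of 12 markers were highest in mouse 103 and 2 in mouse 106. Mouse 103 was also highest for 11 of 12 neutrophil and 9 of 11 B cell markers and for 39.1% of all tested genes. A high value there is thus not particular to dendritic cell genes. The part of these markers was not tested. The 5 genes tied to growth control stayed within 0.25 log2 units over the mice, as did 49.3% of all tested genes. Zbtb2 and Zbtb5, which repress the cell cycle inhibitor p21, averaged 8.67 ± 0.02 and 8.27 ± 0.08, Zbtb14, a repressor of Myc, 8.82 ± 0.04, the telomere-binding Zbtb48 8.19 ± 0.11 and Zbtb49 8.20 ± 0.07 (SD, n = 3).

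The 2 members below background on each array, and so left out of the test of variation, were Zbtb10 (5.16, 5.42 and 5.34) and Zbtb8b (5.83, 5.78 and 5.58). Just inside the threshold were Zbtb12 (6.23, 6.81 and 6.96), Zbtb46 and Zbtb32. The remaining less described members, Zbtb3, Zbtb6, Zbtb9, Zbtb11, Zbtb21, Zbtb22, Zbtb26, Zbtb34, Zbtb37, Zbtb39, Zbtb40, Zbtb41, Zbtb43 and Zbtb44, were all above the 99th percentile. Zbtb44 reached 10.64, 10.26 and 10.26 and Zbtb11 9.97, 9.66 and 9.76.

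The next question was which members varied between the mice. Each gene's variance was compared with that of genes of like level (limma, trended prior, upper-tail F ratio, Benjamini-Hochberg over 13314 genes above background on at least 1 array). No member of the 38 tested passed an adjusted p of 0.05, beside 0.225% of all tested genes (30 genes). At an unadjusted p under 0.05 there were 4 members, Zbtb8a, Zbtb12, Zbtb1 and Zbtb16, or 10.5%, beside 4.84% of all tested genes. The median SD between mice was 0.10 for members and 0.13 for all tested genes, and the largest member SD, 0.53, was below the smallest SD of a gene that passed, 0.76. A miss therefore leaves spreads of the size seen here undecided, and the p-values measure only the spread between these 3 samples.

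**Figure D3:**
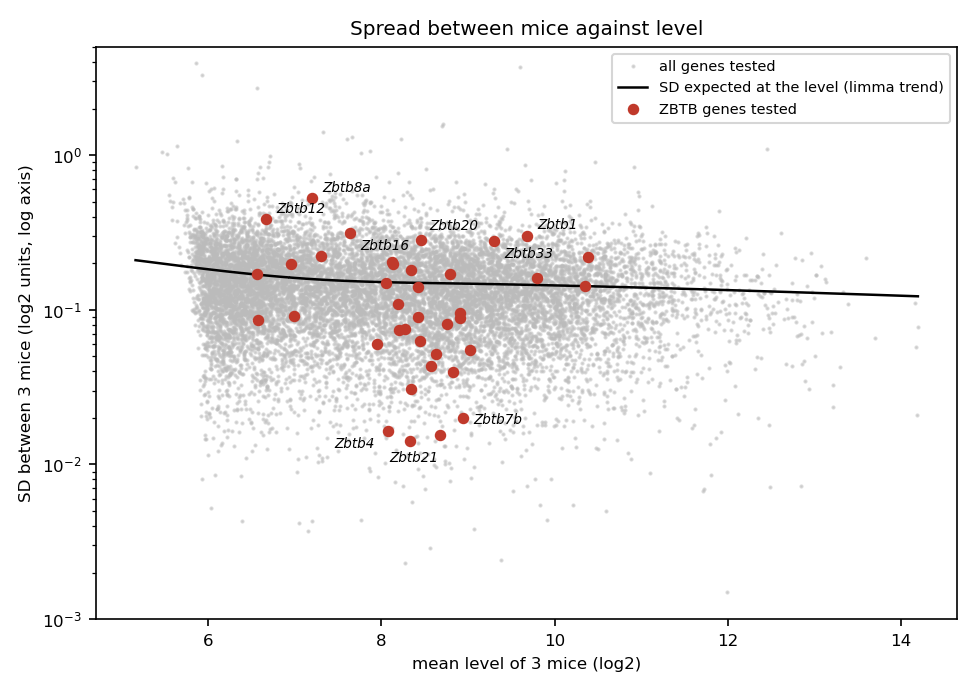
SD between the 3 mice (y axis, log2 units on a log axis) against mean level (x axis, log2) for all tested genes (grey) and ZBTB genes (red), with the SD that limma expects at each level (line). Zbtb8a and Zbtb12 lie highest above the line, and Zbtb21, Zbtb2, Zbtb4 and Zbtb7b lie far below it.

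Zbtb8a spread most. Its levels were 7.62 in mouse 92, 7.37 in mouse 103 and 6.61 in mouse 106, a range of 2.01-fold (SD 0.53, adjusted p = 0.341 in limma). Mouse 106 alone was low, under the 99th percentile of receptor genes on its array. Without mouse 103 Zbtb8a passed (adjusted p = 0.0363, limma), and over all settings its adjusted p ran between 0.0363 and 0.997. Mouse 103 held the middle level, so leaving it out kept only the highest and the lowest mouse and raised the SD to 0.71. Its neighbour Zbtb8b, below background, was also lowest in mouse 106, by 0.25 against mouse 92, whereas Zbtb8os, a neighbouring gene that is no ZBTB factor, was lowest in mouse 103 (8.50, 7.75 and 8.08 in mice 92, 103 and 106).

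Zbtb12, which lies in the MHC region of chromosome 17, had the next largest SD, 0.38, with mouse 92 low (adjusted p = 0.863). Zbtb16 (SD 0.31), Zbtb1 (0.30) and Zbtb20 (0.28) followed. Zbtb20 read 8.52, 8.15 and 8.70, and its probe sets differed in which mice were close. One gave 8.08, 8.06 and 8.51, with mouse 106 high, and the other 8.96, 8.23 and 8.88, with mouse 103 low. For Zbtb44 both probe sets were highest in mouse 92, at 11 against 10.58 and 10.67 in mice 103 and 106 and at 10.28 against 9.93 and 9.85. The probe sets of Zbtb2 went opposite ways by small amounts, at 8.52, 8.47 and 8.43 and at 8.80, 8.91 and 8.91, which leaves an SD of 0.02 for the average, below the 0.046 and 0.065 of the probe sets themselves.

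Zbtb21 had the smallest spread (8.32, 8.35 and 8.33, SD 0.01), followed by Zbtb2 and Zbtb4 (both 0.02). Of the tested members 20 of 38 (52.6%) stayed within 0.25 log2 units over the mice, beside 49.3% of all tested genes.

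**Figure D4:**
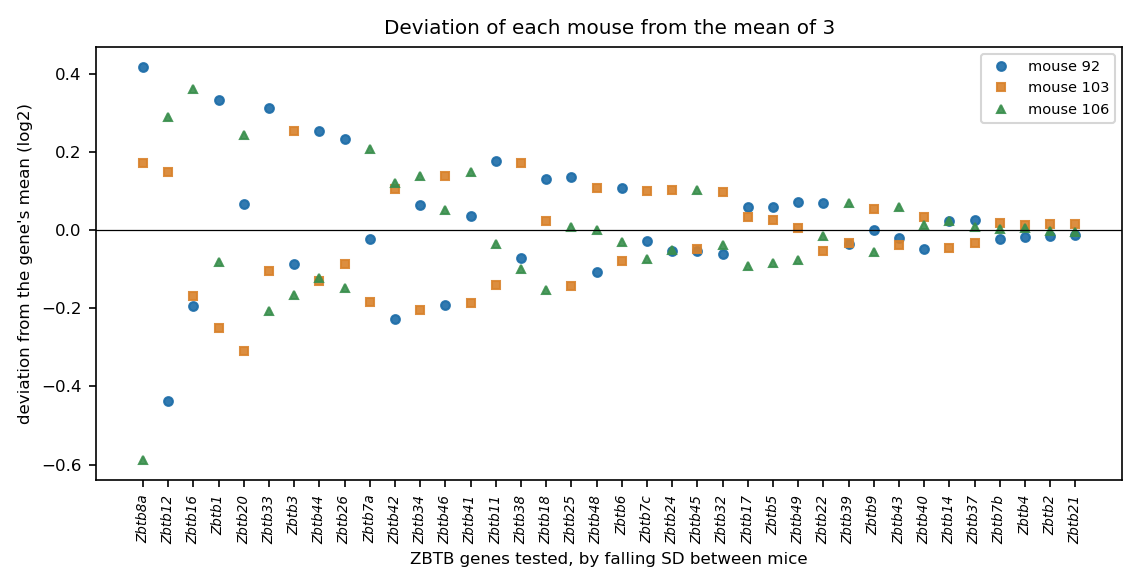
Deviation of each mouse from the gene's mean (y axis, log2) for the 38 tested ZBTB genes, ordered by falling SD. The extremes are shared among the mice, with mouse 106 at -0.59 for Zbtb8a and mouse 92 at -0.44 for Zbtb12.

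The members' deviations went both ways in each mouse. The median deviation of the members from their own means was -0.0051 in mouse 92, 0.0093 in mouse 103 and -0.0037 in mouse 106, and that of all tested genes 0.0021, 0.018 and -0.024. Of the members 15 were highest in mouse 92, 13 in mouse 103 and 10 in mouse 106, or 39.5%, 34.2% and 26.3%, where the shares over all tested genes were 37.4%, 39.1% and 23.5%. Both other adjacent pairs lie on chromosome 2, each on a single strand. Zbtb6 read 9.01, 8.83 and 8.88 and its neighbour Zbtb26 8.36, 8.04 and 7.98, both highest in mouse 92 but lowest in different mice. Zbtb34 read 8.40, 8.13 and 8.48 and its neighbour Zbtb43 8.60, 8.59 and 8.69, both highest in mouse 106 and lowest in mouse 103. With 3 mice such a shared order is a description only.

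Genes tied to the family as partners, by pathway or by structure were read from 6 lists with 88 measured genes in all. Of these 83 (94.3%) were above background on all arrays, beside 61.8% of all named genes. The lists include genes known from thymocytes, such as Cd4 and Cd8a, so this share is a description and no test. Of the 85 tested none varied by adjusted p (limma), beside 0.225% of all tested genes, and 6 (7.06%) had an unadjusted p under 0.05, beside 4.84% (Runx3, Cd1d1, Tbx21, Cxcr6, Il12rb2 and Cdkn2b). All 17 genes of the CD4 and CD8 lineage choice passed background, with Satb1 given above, Cd8a at 13.21 ± 0.03 and Cd8b1 at 12.94 ± 0.03 (SD, n = 3). Runx3, the CD8 factor that ThPOK restrains, had levels of 7.23, 7.75 and 7.83, lowest in mouse 92. All 21 corepressor and CUL3 partner genes passed, among them Hdac1 (11.80 ± 0.09), Chd4 (11.69 ± 0.09), Hdac7 (11.62 ± 0.10) and, read at 11.07 ± 0.19, Cul3 (SD, n = 3). The MIZ-1 and MYC list passed in 13 of 13 cases, among them Mxd4 (11.13 ± 0.06), Huwe1 (10.59 ± 0.16) and Il7r (10.39 ± 0.22). Of the methyl-CpG reader and ICF list 10 of 11 genes passed, with Cdca7, which ZBTB24 activates, at 12.23 ± 0.11, Mbd2 at 11.82 ± 0.13 and Uhrf1 at 11.12 ± 0.20 (SD, n = 3). Ctnnd1, which encodes the Kaiso partner p120 catenin, was the exception, above background in mouse 103 alone (5.57, 6.11 and 5.86). Of the PLZF-linked innate-like T cell list 15 of 18 passed, among them Fyn (10.90 ± 0.11), Sh2d1a (10.64 ± 0.19) and Slamf6 (9.81 ± 0.22). Ccr6, Il4 and Klrb1c did not pass. BTB zinc finger genes with other symbols passed in 7 of 8 cases. Patz1, which restrains Cd8 and Zbtb7b, read 10.79 ± 0.06, Bcl6 10.51 ± 0.19 and Zfp131 8.73 ± 0.19 (SD, n = 3), while Bcl6b lay below background (5.49, 5.59 and 5.52).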

How the data were processed

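The authors deposited 1 table of log2 levels for 35557 probe sets on 3 arrays. Affymetrix Expression Console produced it, per the submitters' processing notes; no source used here gives its version, background correction or normalisation, and the log2 scale was inferred from the range of the values, 1.76 to 14.96. Arrays not analysed here may have entered that normalisation. Of the probe sets, 21789 had a single symbol in the platform annotation, 1621 had several and 12147 were not listed; 21698 of the single symbols had an Entrez identifier in RefSeq (GRCm38.p6) and 0 needed an update. Probe sets of a gene were averaged.

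For variation, an intercept-only model in limma 3.58.1 (R 4.3.3) was moderated by eBayes with a trended, non-robust prior of 10.4 degrees of freedom, and the ratio of each gene's variance to its prior was read as an upper-tail F. The test was checked on simulated data, where it recovered larger shifts in 1 mouse but none of about the size of the Zbtb8a range. The number of arrays, 3, limits the precision, and the labels do not say how the samples were taken. Members and lists were chosen with earlier results of these data known. Named in full were the 4 lineage factors, members called or below background, the 5 largest and 3 smallest SDs and members with several probe sets; of each list, the 3 highest genes, those called and those below background; the rest, including Runx3, Cul3 and the sex-linked genes, were chosen after their values were seen. Promoter windows came from RefSeq, and 1683 of 1683 overlapping windows on opposite strands were reverse complements. Alternatives covered the background, the normalisation, the probe sets, the prior, the filter and leaving out each array.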

Additional observations from a re-analysis of the deposited data

How the results depend on the processing

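The count of members above background was 38 under olfactory receptors alone, quantile normalisation, the highest probe set per gene and without any 1 mouse, and 34 at the 99th percentile; partner genes passed in 83 cases and 76 at the 99th percentile. Members varying between mice numbered 0 under each normalisation, prior and filter, with 1 to 5 at an unadjusted p under 0.05 over all settings, and between 0 and 1 when a mouse was left out (limma): without mouse 103 Zbtb8a passed. Partner genes numbered 0 to 1 likewise, Cd1d1 passing without mouse 92 (adjusted p = 0.0049, limma). Over all tested genes limma called 30 genes, 44 with a robust prior at the degrees of freedom of the bulk, 0 with per-gene degrees of freedom (600 at an unadjusted p under 0.05), 18 with quantile and 18 with cyclic loess values, and 58, 48 and 84 without mice 92, 103 and 106 (without 92 or 106 the prior degrees of freedom were infinite); 19 passed with the filter at the 99th percentile, a setting added after seeing the data. The median member deviation was -0.04 to 0.06 in mouse 92, -0.07 to 0.04 in mouse 103 and -0.0037 to 0.012 in mouse 106 over normalisations; under median centring it was 0.062 and -0.074 in mice 92 and 103, and that of all tested genes 0.069 and -0.065. Of 416 single-member results under alternatives, 415 stayed on the same side of the threshold. In the main setting the adjusted p was 0.341 for Zbtb8a and 0.863 to 0.999 for the other members (limma). Few members could thus have crossed, and the count says little about stability. The causes were not tested. No paired analysis was possible because the labels give 1 group. Signals near the receptor background, as for Zbtb12, Zbtb32 and Zbtb46, limit how far a change could be read.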
